A study of Mus musculus with 6 samples.

Results

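MN1VP16 cells were compared with Gr1+/CD11b+ marrow cells on 4 of the 6 arrays of the series. The MN1VP16 group (n = 2 arrays) held GFP-positive marrow cells that carried the gammaretroviral vector pSF91-MN1VP16-IRES-GFP. Their donors were C57BL/6J mice given 150 mg/kg of 5-fluorouracil for 4 days. The donor marrow was stimulated for 48 hours with human IL6, mouse IL3 and mouse SCF, transduced, and transplanted into syngeneic mice, from which GFP-positive cells were sorted 4 weeks later. The Gr1Mac group (n = 2 arrays) was marrow sorted on Gr1 and CD11b, also of the C57BL/6 strain. The labels attach the same protocols to every sample and do not say whether the Gr1Mac cells came from transplanted, vector-treated or untouched mice. The 2 arrays of the remaining group, MN1, made in the same way with pSF91-MN1-IRES-GFP, entered the fit for their spread and for 1 direct comparison with MN1VP16. Nothing in the labels ties the arrays of a group to separate mice, pools or integration clones, so p-values here measure the spread between these samples, which may be technical.

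MN1 is a transcriptional coregulator that works with nuclear receptors and histone acetyltransferases, and its overexpression in mouse marrow is known to cause a myeloid leukaemia. VP16 is the herpes simplex activator whose acidic domain, fused to another protein, drives strong transcription. Gr1 (Ly6G with Ly6C) and CD11b mark granulocytes and monocytes, and in marrow such a gate usually takes maturing neutrophils and monocytes. The comparison sets the transduced cells against marrow cells chosen by these myeloid surface proteins, whose cell shares were not measured. It sets a GFP gate, open to any lineage, against a gate on myeloid surface proteins.

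Values are the authors' log2 expression values after robust multiarray averaging (RMA). A difference of 1 on this scale is 2-fold. Each of 18193 genes was read by 1 probe set, the brightest of those naming only that gene. A gene was called higher or lower where limma, fitted to all 6 arrays, gave a Benjamini-Hochberg adjusted p under 0.05 over all 18193 genes. Where the lower group mean lay at or under a background guide of 5.84, the fold is given as "at least" against that guide. The guide is the highest reading of Xist on the arrays with high Y-linked genes. Such a fold is a point estimate from the group means and no lower confidence limit. For Cpa3 it was 95.4, while the 95% interval of the fitted fold began at 86.3. The gene lists below hold 690 distinct genes in 31 lists, of which 629 were measured.

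The cells were checked first. Mn1 itself read 4.92 and 4.00 in MN1VP16 cells and 3.63 and 4.21 in Gr1Mac cells, all under the background guide (difference 0.54, SE 0.38, limma adjusted p = 0.472). The array reads 3′ ends, and whether its Mn1 probe set can bind the vector's transcript is not stated in the sources used here, so this reading does not check the label. Itgam, which encodes the CD11b of the Gr1Mac gate, was called lower in MN1VP16 cells (9.44 and 8.88 against 10.95 and 10.92; 3.42-fold, 95% interval 2.06 to 5.67, limma adjusted p = 0.0322). It helped to choose the Gr1Mac cells and is no independent result. Without each of the 4 compared arrays in turn the adjusted p of Itgam lay between 0.0501 and 0.116. Ly6g, the other gate gene, was not measured. The granule genes that define maturing neutrophils were high in both groups: lactoferrin (Ltf) read 14.54 and 14.49 in MN1VP16 cells and 14.93 and 14.96 in Gr1Mac cells. Calprotectin's S100a8 read 15.16 and 15.08 against 15.07 and 15.11, near the top of the scale, where a difference can be compressed.

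The arrays of a group differed in ways the groups do not explain. Xist, the RNA of the inactive X, read 5.53 and 5.84 on the MN1VP16 arrays, with the Y-linked Kdm5d at 7.24 and 7.55. On Gr1Mac array 1 Xist read 10.44 and Kdm5d 3.11, and on Gr1Mac array 2 Xist read 5.83 and Kdm5d 7.37. Both MN1 arrays had the Xist pattern. The mean of the hybridisation control features was 11.24 and 9.08 on the MN1VP16 arrays and 9.69 and 9.56 on the Gr1Mac arrays. Arrays of 1 group correlated at 0.981 (MN1VP16) and 0.982 (Gr1Mac) over genes, and arrays across the 2 groups at 0.953 to 0.963. The part of sex and of hybridisation in the differences below was not tested beyond the fits without single arrays and those with these patterns as blocks. The number of arrays limits the precision.

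Of 18193 genes, 666 (3.66%) were called higher and 384 (2.11%) lower in MN1VP16 cells, 1050 (5.77%) in all. The counts of called list members below are to be read beside these shares. A count of 1 or 2 called members in a direction says nothing particular about a list. The unadjusted p was under 0.05 for 4313 genes. A 2-fold change or more was fitted to 573 of the higher and 321 of the lower genes, with a median difference of 1.44 among the higher and -1.35 among the lower ones. The median over all genes was -0.00. In all 1050 called genes both MN1VP16 arrays lay on the same side of both Gr1Mac arrays, against 24.8% of all genes with such a gap upwards and 25.2% downwards. With such a gap, leaving out 1 array cannot change the direction of a gene. The counts changed with the array left out. Without Gr1Mac array 1 the fit called 1018 higher and 225 lower, and without Gr1Mac array 2 only 22 and 27. It called 272 and 169 without MN1VP16 array 1, and 231 and 90 without MN1VP16 array 2. Leaving out either MN1 array gave 181 and 166. The direction of all 1050 genes was kept in each of these fits, and 33 genes (17 higher, 16 lower) kept the call without each of the 4 compared arrays. Of the 70 called genes named below, 39 kept their call without Gr1Mac array 1, 13 without Gr1Mac array 2, 46 without MN1VP16 array 1 and 44 without MN1VP16 array 2.

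**Figure D1:**
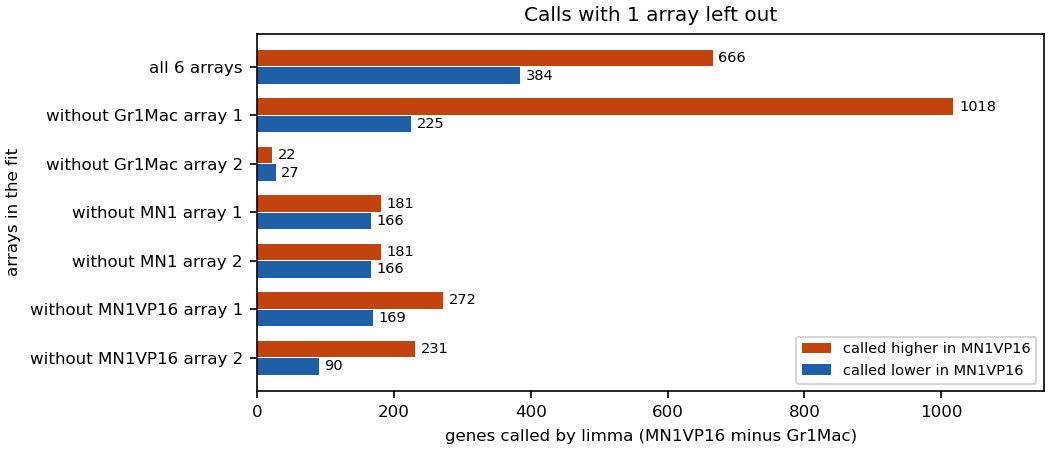
Number of genes called by limma in MN1VP16 minus Gr1Mac, with all 6 arrays and with 1 array left out (horizontal axis, genes; red bars, higher in MN1VP16; blue bars, lower). The bars run from 22 higher and 27 lower without Gr1Mac array 2 to 1018 higher and 225 lower without Gr1Mac array 1.

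**Figure D2:**
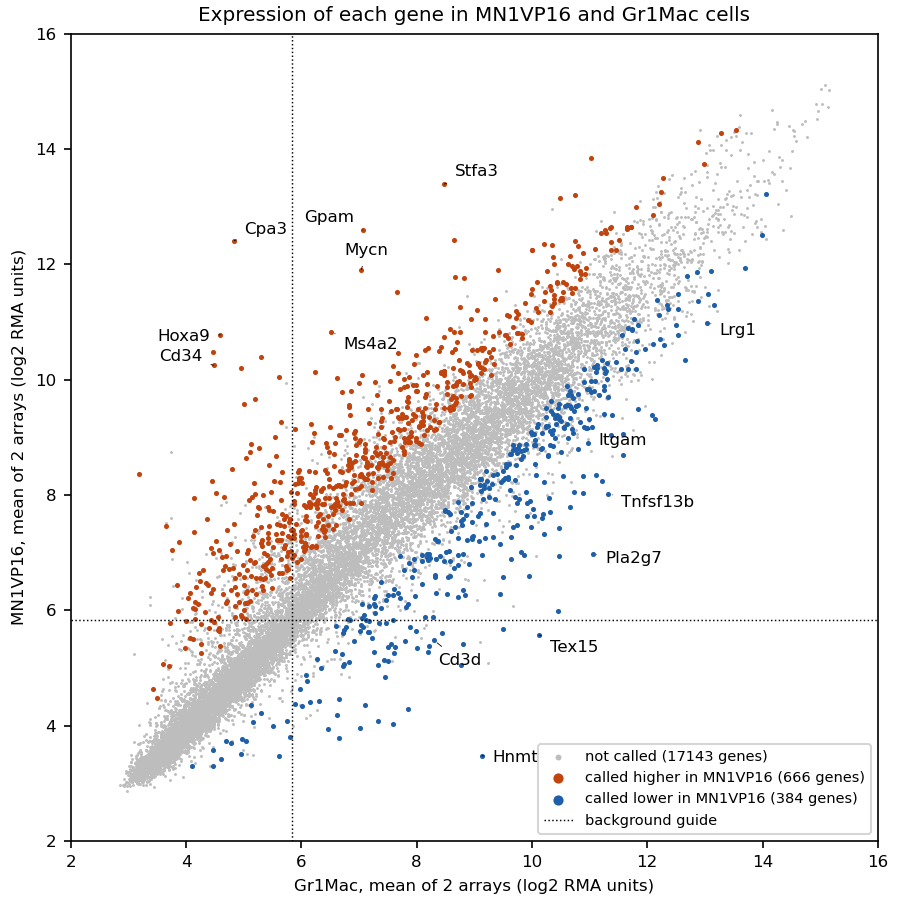
Mean of the 2 MN1VP16 arrays against the mean of the 2 Gr1Mac arrays for 18193 genes (both axes log2 RMA units), with the 666 genes called higher in red, the 384 called lower in blue and the background guide of 5.84 as dotted lines. Cpa3, Hoxa9 and Cd34 lie left of the guide and Hnmt and Tex15 under it, so their folds are given against the guide.

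The largest difference between the populations was in Cpa3, the carboxypeptidase A of mast cell and basophil-lineage granules. Cpa3 read 12.48 and 12.34 in MN1VP16 cells and 5.59 and 4.08 in Gr1Mac cells. Both Gr1Mac readings lay under the background guide, and the rise was at least 95.4-fold (fitted difference 7.58, SE 0.47, limma adjusted p = 0.00769). Gata2, a zinc finger factor of stem, mast and megakaryocyte cells, read 11.09 and 9.70 against 5.69 and 4.91 (a rise of at least 23.6-fold with a limma adjusted p = 0.0125). The fall in Hnmt, which encodes the enzyme that inactivates histamine by methylation, was the largest by fitted difference (-5.66, SE 0.19). Hnmt read 3.44 and 3.51 in MN1VP16 cells and 9.07 and 9.20 in Gr1Mac cells (at least 9.84-fold lower, limma adjusted p = 0.00156). Hnmt was thus under the background guide in the transduced cells and well above it in Gr1Mac cells. Both Cpa3 and Hnmt kept their calls without each compared array, with adjusted p up to 0.0368, while Gata2 had 0.0628 without Gr1Mac array 2. The second Gata2 probe set gave a difference of 1.35, which was not called.

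Mast cell and basophil markers did not all move together. In 8 of the 18 measured both group means lay under the background guide, so these could show no clear difference. Of 18 measured members 3 were called higher (Cpa3, Gata2 and Ms4a2) and none lower, where 3.66% and 2.11% of all genes were. The median difference was 0.68. Ms4a2, the beta chain of the high-affinity IgE receptor, read 12.03 and 9.60 against 6.72 and 6.30 (19.8-fold, interval 5.62 to 69.9, limma adjusted p = 0.0334). The receptor's alpha chain Fcer1a read 8.65 on MN1VP16 array 1 and 4.02 on array 2, against 4.49 and 4.04, and was not called (adjusted p = 0.484). The basophil protease Mcpt8 (8.04 and 9.98 against 6.82 and 5.63) and the histamine-forming Hdc (10.92 and 11.76 against 11.88 and 12.55) were not called either. The mast cell tryptase Tpsb2 lay under the background guide on every array, at 5.18 and 5.09 against 4.95 and 5.36. The mean over the list was 7.50 and 6.70 log2 units on the MN1VP16 arrays and 5.75 and 5.58 on the Gr1Mac arrays. The adjusted p of Ms4a2 was 0.0875 without Gr1Mac array 1 and 0.136 without Gr1Mac array 2. Without Gr1Mac array 2 the list had 1 call, Cpa3, and without the other compared arrays 2 to 4. In a bulk sample more cells of a type and more RNA per cell cannot be told apart.

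GATA factors, Gata2 among them, bind the letters AGATAA. The promoters of Cpa3 and Ms4a2 are shown because, of the list's 3 called members, only these 2 had a match in the window searched. Gata2 had none. The sequences are RefSeq's (GRCm38.p6), from 250 bases before to 50 bases after the start site, read 5′ to 3′ on the gene's strand, with each match to AGATAA, on either strand, in capitals. Cpa3 lies on the minus strand at chr3:20242132-20242431 and has 1 match, which begins at base -46. Ms4a2 lies on the minus strand at chr19:11623670-11623969 and has 3 matches, at -224, -37 and -11.
Cpa3: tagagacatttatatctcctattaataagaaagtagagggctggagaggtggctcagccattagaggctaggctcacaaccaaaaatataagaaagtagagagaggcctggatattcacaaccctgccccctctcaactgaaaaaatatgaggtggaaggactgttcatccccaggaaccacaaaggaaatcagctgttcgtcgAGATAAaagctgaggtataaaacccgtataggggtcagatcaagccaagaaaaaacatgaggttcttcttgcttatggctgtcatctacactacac
Ms4a2: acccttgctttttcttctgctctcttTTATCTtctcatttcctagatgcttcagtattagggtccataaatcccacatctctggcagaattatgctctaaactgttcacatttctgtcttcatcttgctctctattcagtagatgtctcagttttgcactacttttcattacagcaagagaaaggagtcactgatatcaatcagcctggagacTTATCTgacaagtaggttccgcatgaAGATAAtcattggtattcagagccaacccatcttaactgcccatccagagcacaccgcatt
The motif was present in 6 of the 15 list members with a promoter in the table (40%), in 8.13% of the promoters of genes on the array and in 11.4% of all 27025 promoters. The erythroid and haem synthesis list described below was searched for it as well. There it was present in 6 of 19 members with a promoter (31.6%) and in 1 of the 6 called higher (16.7%). A match is a description of the letters and no evidence of binding.

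Of 23 measured stem and progenitor genes 11 were called higher in MN1VP16 cells and none lower, and the median difference was 1.71. Cd34, the surface sialomucin of haematopoietic progenitors, read 11 and 9.50 against 4.96 and 4.00 (at least 21.3-fold, limma adjusted p = 0.0129). The MYC-family gene Mycn read 11.52 and 12.29 against 6.80 and 7.28 (29.1-fold, interval 17.3 to 49.2, limma adjusted p = 0.00769). Mycn has 2 further probe sets, which gave 0.31 and -0.32 and were not called, so its call rests on 1 probe set. The receptor-like lectin Cd93 was called with a smaller and very even difference (11.30 and 11.23 against 9.03 and 8.48; limma adjusted p = 0.0113). Myb, the factor that holds progenitors in cycle, read 11.72 and 12.78 against 9.98 and 10.04 (limma adjusted p = 0.0262). Sox4, Msi2, Zfpm1, Cd27, Lmo2 and Hlf were the remaining called members, with differences from 2.31 down to 0.97. Kit, which binds stem cell factor, missed the threshold with a fitted fold of 2.12 (9.68 and 9.81 against 8.34 and 9.0; interval 1.40 to 3.19, limma adjusted p = 0.0598). The list's count was 8 without Gr1Mac array 1, 3 without Gr1Mac array 2 (Mycn, Cd93 and Sox4), 6 without MN1VP16 array 1 and 11 without MN1VP16 array 2.

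Among the HoxA genes and their Meis and Pbx partners, homeodomain factors that act together in myeloid leukaemia, Hoxa9 stood out. Hoxa9 read 9.92 and 11.63 in MN1VP16 cells and 5.02 and 4.17 in Gr1Mac cells (at least 30.7-fold higher, limma adjusted p = 0.0125). Its second probe set gave 0.57 and was not called. Meis1 read 8.44 and 6.25 against 4.89 and 5.44, without overlap but with a gap between the MN1VP16 arrays as wide as the group difference of 2.18 (limma adjusted p = 0.117). Hoxa10 split the MN1VP16 arrays the other way, at 5.37 and 8.32 against 3.97 and 4.05 (adjusted p = 0.117). Hoxa5 and Hoxa7 differed by 0.32 and 0.23 and were not called. Pbx2 was the 1 member called lower (8.25 and 8.09 against 9.16 and 9.04; 1.90-fold, limma adjusted p = 0.0324). Of 14 measured members 1 was thus called in each direction, with a median difference of 0.34. Over all genes 3.66% were called higher and 2.11% lower, so these counts say nothing particular about the list. Without Gr1Mac array 2 no member was called (Hoxa9 0.0646), without either MN1VP16 array 3 were called higher, and Pbx2 was lost without any 1 of the 6 arrays.

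Erythroid markers and haem synthesis genes included 7 called members of 24, all higher, with a median difference of 0.76. Car1, the carbonic anhydrase of erythroid progenitors, read 11.20 and 9.20 in MN1VP16 cells and 4.73 and 5.18 in Gr1Mac cells (at least 20.6-fold, limma adjusted p = 0.0175). The water channel Aqp1 read 8.90 and 7.18 against 4.98 and 4.07 (at least 4.61-fold, limma adjusted p = 0.0311). Klf1, the erythroid Kruppel-like factor, read 9.68 and 8.46 against 5.90 and 6.53 (limma adjusted p = 0.0262). The Rhesus genes Rhd and Rhag, the blood group gene Ermap and the transferrin receptor Tfrc were the other called members. In Car1, Aqp1 and Klf1 MN1VP16 array 1 lay above array 2. Of the 24 members 18 were fitted higher and 6 lower. The arrays of the 2 groups did not overlap in 15 upwards and 5 downwards, where 24.8% and 25.2% of all genes had such gaps. Alas2, the first enzyme of haem synthesis in red cells, was among those fitted lower. It read 8.85 and 7.87 against 10.98 and 9.72 and was not called (adjusted p = 0.116). The count was 3 without Gr1Mac array 1, 0 without Gr1Mac array 2 and 5 and 7 without MN1VP16 array 1 and 2. Among 18 megakaryocyte and platelet markers 1 was called higher and 2 lower, where 3.66% and 2.11% of all genes were. Counts this small say nothing particular about the list. F2r, the thrombin receptor, read 11.58 and 9.37 against 4.68 and 4.28 (at least 25-fold, limma adjusted p = 0.0152). The platelet lectin receptor Clec1b (6.11 and 6.59 against 8.89 and 8.72) and P-selectin, Selp (6.40 and 6.77 against 8.11 and 7.72), were called lower, with adjusted p of 0.0288 and 0.0286. One of the 2 other Selp probe sets gave a difference of 0.27. F2r lost its call without Gr1Mac array 2 (adjusted p 0.0830), and Clec1b and Selp lost theirs without each of the 4 compared arrays (0.0661 to 0.108 and 0.0584 to 0.0844).

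Nucleolar and Myc target genes, which make ribosomes and supply a growing cell, held the highest share of calls among the lists of 10 or more genes. The lists were written with earlier results of these data known, so this rank is a description and no support for a theme. Of 30 measured members 21 were called higher and none lower, with a median difference of 1.65. Myc itself read 9.22 and 8.86 against 7.07 and 6.23 (difference 2.39, SE 0.31, limma adjusted p = 0.0204). Srm, spermidine synthase, read 10.27 and 10.64 against 8.22 and 7.15 (6.83-fold, interval 3.71 to 12.6, limma adjusted p = 0.0204). Nop58, a core protein of the box C/D particles that methylate ribosomal RNA, read 8.64 and 9.22 against 6.52 and 5.85 (6.68-fold, limma adjusted p = 0.0156). Nucleophosmin (Npm1) read 12.25 and 12.46 against 10.45 and 9.98, and nucleolin (Ncl) 11.96 and 12.06 against 10.66 and 10.12. Gnl3, Dkc1, Cad, Odc1 and Cdk4 rose by 2.13 to 2.70. In Myc, Srm, Nop58, Npm1 and Ncl Gr1Mac array 2 was the lower of the 2 Gr1Mac arrays, as in the mean over the list: 9.40 and 9.51 on the MN1VP16 arrays, 8.15 on Gr1Mac array 1 and 7.49 on Gr1Mac array 2. Outside the list Tsr1, a factor of small ribosomal subunit assembly, was among the 8 largest rises over the background guide (9.83 and 10.23 against 6.97 and 6.26; 10.7-fold, limma adjusted p = 0.0113). The list's count was 25 without Gr1Mac array 1, 1 without Gr1Mac array 2 (Gnl3), 8 without MN1VP16 array 1 and 6 without MN1VP16 array 2, while its median stayed between 1.35 and 2.07.

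The E-box CACGTG is the letters that Myc with its partner Max binds. Cdk4, a cyclin-dependent kinase of the G1 phase, is shown because it had 4 matches. The called members Mybbp1a and Wdr43 had 1 each, and matches in the other members were not counted. Its window lies on the plus strand at chr10:127063285-127063584 (GRCm38.p6, RefSeq), with the matches in capitals, beginning at -172, -118, -98 and -11 from the start site.
Cdk4: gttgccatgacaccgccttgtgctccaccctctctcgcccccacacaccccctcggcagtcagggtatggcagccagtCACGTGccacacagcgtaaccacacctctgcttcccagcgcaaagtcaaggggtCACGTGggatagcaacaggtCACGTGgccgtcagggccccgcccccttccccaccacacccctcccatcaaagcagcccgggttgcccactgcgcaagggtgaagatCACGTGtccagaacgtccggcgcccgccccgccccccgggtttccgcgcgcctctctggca
The motif, which reads the same on both strands, was present in 7 of 24 list members with a promoter in the table (29.2%), in 4 of the 17 called ones, in 9.02% of the promoters of genes on the array and in 7.24% of all 27025. No promoter held overlapping matches to CACGTG and AGATAA.

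Genes that supply amino acids and one-carbon units were called in 9 of 24 measured members, 7 higher and 2 lower, with a median difference of 0.66. Shmt2, the mitochondrial serine hydroxymethyltransferase, read 9.99 and 10.16 against 7.58 and 6.52 (8.13-fold, interval 4.56 to 14.5, limma adjusted p = 0.0156). Aldh18a1, which makes the precursor of proline, read 8.92 and 9.43 against 6.81 and 6.17 (6.42-fold, limma adjusted p = 0.0160). The serine synthesis enzymes Phgdh and Psat1, the folate enzyme Mthfd1 and the transporters Slc7a5 and Slc7a1 rose by 1.03 to 2.12. Got1, a transaminase (7.06 and 7.39 against 9.30 and 8.45), and the cystine transporter Slc7a11 (4.86 and 4.89 against 5.79 and 6.37) fell, with adjusted p of 0.0449 and 0.0380. Without Gr1Mac array 1 the list had 9 higher and 1 lower, without Gr1Mac array 2 only Shmt2, and without MN1VP16 array 1 or 2 it had 4 and 3 higher and none lower.

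DNA replication genes were fitted higher in 30 of 31 measured members and called in 4, with a median difference of 0.88. Mcm2 and Mcm3, subunits of the replicative helicase, read 10.88 and 11.41 against 9.58 and 9.95, and 10.17 and 10.85 against 9.25 and 9.04 (2.61-fold and 2.58-fold, limma adjusted p = 0.0331 and 0.0392). Rfc5 of the clamp loader and the dUTPase Dut were the other calls. With only the 4 compared arrays no replication gene was called, and with arrays centred on their medians 1 was. No mitosis gene was called by limma of 25, and none had an unadjusted p under 0.05 (median difference 0.02): the proliferation antigen Mki67 read 11.99 and 12.32 against 12.37 and 12.24, and the topoisomerase Top2a 11.50 and 12.23 against 11.89 and 11.77. Between Mki67 in the groups the difference was -0.15 (SE 0.18, adjusted p = 0.715). Among 21 cell cycle inhibitors and p53 targets, Cdkn1a (p21) was called higher (9.94 and 9.66 against 8.19 and 7.82; 3.46-fold, limma adjusted p = 0.0459). Cdkn2d (p19), a CDK4 and CDK6 inhibitor, was called lower (9.79 and 9.68 against 10.97 and 11.34; 2.68-fold, limma adjusted p = 0.0315). The death receptor Fas was called lower as well (5.26 and 5.25 against 7.84 and 7.38; at least 3.43-fold, limma adjusted p = 0.0113), as was Perp, where both groups lay under the background guide. Fas kept its call without each compared array. Cdkn1a and Perp lost theirs without each compared array (adjusted p 0.0916 to 0.161 and 0.0883 to 0.130). Cdkn2d kept its call only without Gr1Mac array 1 (0.0469). No replication gene was called without Gr1Mac array 2 or without MN1VP16 array 2.

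**Figure D3:**
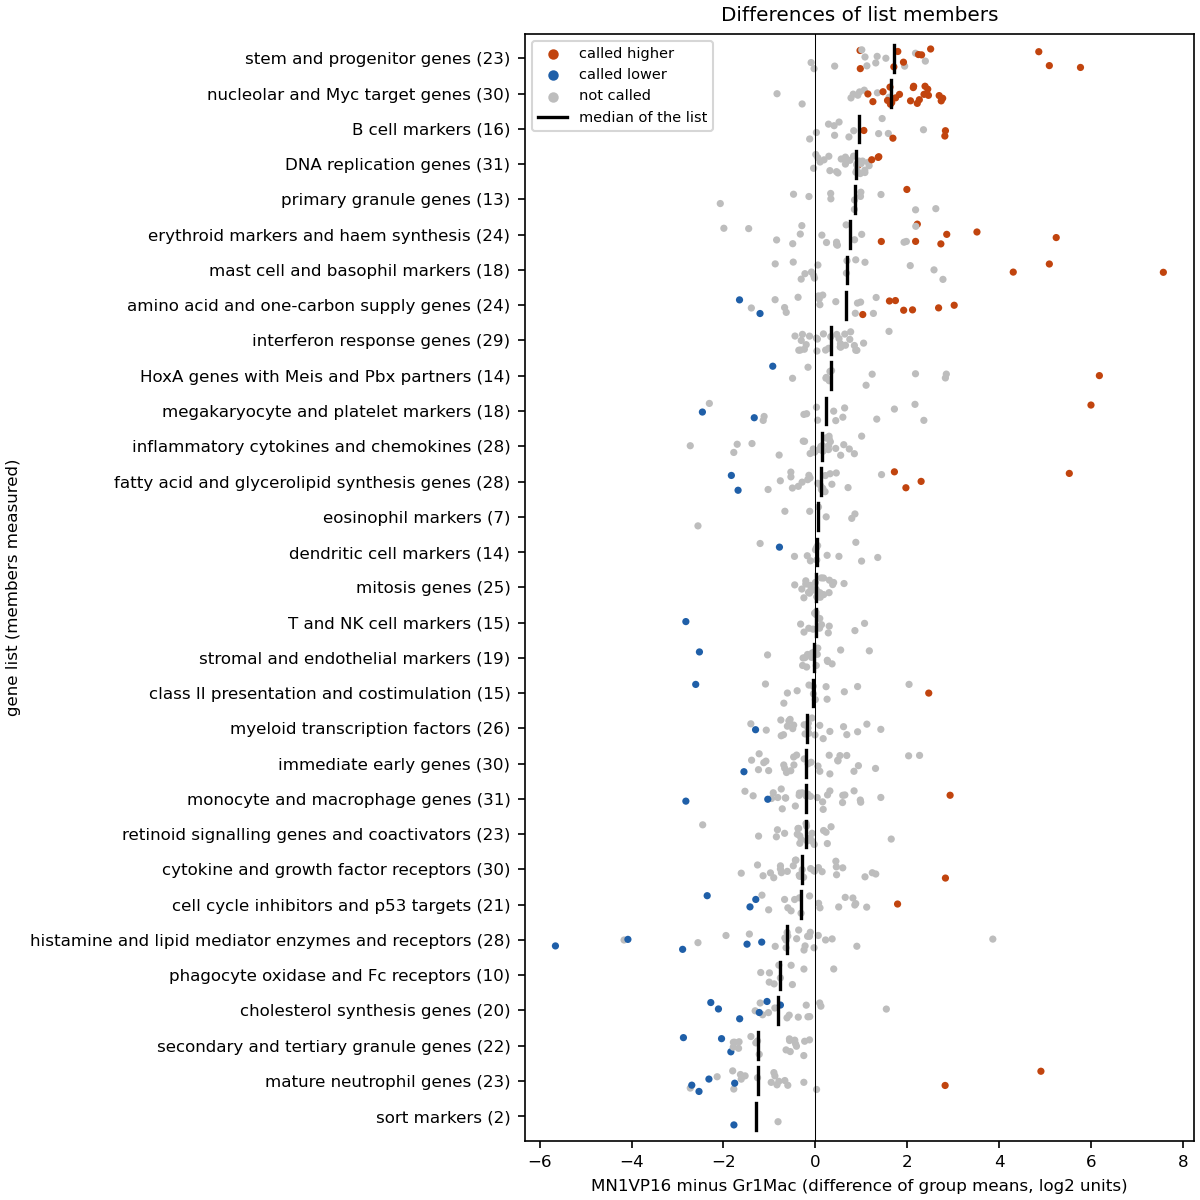
Difference of group means (MN1VP16 minus Gr1Mac, log2 units; horizontal axis) for each measured member of 31 gene lists, with members called higher in red, lower in blue and not called in grey; black bars are list medians and the number measured stands in brackets. Nucleolar and Myc target genes have 21 of 30 members called higher around a median of 1.65. All 22 members of the secondary and tertiary granule list lie left of 0, with 3 called.

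The list of secondary and tertiary granule genes, made late in neutrophil maturation, was fitted lower in all 22 measured members. The median difference was -1.24, and 3 members were called. The list is wider than its name, since the called Arg2 and Padi4 do not encode typical granule proteins. The arginase Arg2 read 7.56 and 8.02 against 10.52 and 10.80 (7.32-fold lower, interval 3.81 to 14.1, limma adjusted p = 0.0217). Lrg1, a secreted leucine-rich glycoprotein of neutrophil granules, read 10.76 and 11.21 against 12.87 and 13.20 (4.12-fold lower, limma adjusted p = 0.0438). Padi4, the citrulline-forming enzyme of neutrophil nuclei, read 9.25 and 9.57 against 11.23 and 11.26 (3.58-fold lower, limma adjusted p = 0.0440). The gelatinase Mmp9 (12.75 and 12.44 against 14.31 and 14.40) was separated by array but not called (adjusted p = 0.0782). Of the 22 members 19 had both MN1VP16 arrays under both Gr1Mac arrays, where 25.2% of all genes did. None of the 22 was called without any 1 of the 4 compared arrays, and 6 were called without either MN1 array; the median stayed between -0.92 and -1.27 without the compared arrays.

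Of 23 mature neutrophil genes 4 were called lower and 2 higher, around a median of -1.26. Ifitm1 (8.88 and 9.89 against 11.91 and 12.24; limma adjusted p = 0.0224) and the aspartic protease Asprv1 (8.42 and 9.69 against 11.42 and 11.75; limma adjusted p = 0.0440) fell most, followed by the lectin receptor Clec4d and the MAX partner Mxd1. The 2 called higher were stefins, cysteine protease inhibitors. Stfa3 read 13.38 and 13.41 in MN1VP16 cells and 8.63 and 8.33 in Gr1Mac cells (30.1-fold, interval 18.1 to 50.1, limma adjusted p = 0.00769). Stfa2l1 read 14.04 and 13.66 against 10.88 and 11.17 (7.09-fold, limma adjusted p = 0.0140). The stefin A genes of the mouse are near-identical copies, so which copy a probe set reads is uncertain, and Stfa1 and Stfa2 were not measured. Without Gr1Mac array 2 no member of the list was called, with Stfa3 at an adjusted p of 0.0511, and without each other compared array 2 were higher and 3 lower. The receptor for G-CSF, Csf3r, read 11.07 and 11.22 against 12.76 and 12.76 and missed the threshold (adjusted p = 0.0571).

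Primary granule genes, made at the promyelocyte stage, were fitted higher in 10 of 13 measured members (median 0.85), but only the chaperone calreticulin (Calr) was called (11.97 and 12.70 against 10.42 and 10.27; 3.98-fold, limma adjusted p = 0.0204; 0.0902 without Gr1Mac array 2). Calreticulin is a general chaperone of the endoplasmic reticulum and not particular to promyelocytes, so its call is no result on granule proteins. Myeloperoxidase (Mpo) read 13.81 and 14.86 against 13.31 and 12.51, and neutrophil elastase (Elane) 11.08 and 13.12 against 11.62 and 10.88. In both, MN1VP16 array 2 was the high one, and neither was called (adjusted p = 0.212 and 0.682). No gene of the phagocyte oxidase and Fc receptor list was called of 10, with a median of -0.78, 9 fitted lower and 5 lower at an unadjusted p under 0.05 (limma). Among 26 myeloid transcription factors only Nfe2, a leucine zipper factor, was called (11.39 and 11.06 against 12.75 and 12.31; 2.47-fold lower, limma adjusted p = 0.0304). Cebpa, which directs granulocyte commitment, read 8.14 and 8.47 against 7.96 and 7.29, and Irf8, which directs monocyte commitment, 11.84 and 11.08 against 11.04 and 9.02. Neither was called (adjusted p = 0.309 and 0.249), and the intervals of their folds, 0.891 to 2.90 and 0.910 to 7.93, include no change. Without Gr1Mac array 1 Irf8 had an adjusted p of 0.0379, and Nfe2 lost its call without any compared array (0.0569 to 0.105).

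Monocyte and macrophage genes were called in 3 of 31 measured members, 1 higher and 2 lower, where 5.77% of all genes were called; counts this small, here and for the other lists of this paragraph, say nothing particular about the lists. The mannose receptor Mrc1 was higher (10.83 and 9.05 against 7.15 and 6.86; 7.64-fold, limma adjusted p = 0.0399). Slc40a1, the iron exporter ferroportin of macrophages, was lower (8.69 and 9.95 against 11.80 and 12.48; 7.06-fold, limma adjusted p = 0.0276), as was the complement gene C1qa (6.35 and 6.15 against 7.37 and 7.19; 2.05-fold, limma adjusted p = 0.0282). The receptor for M-CSF, Csf1r, read 12.88 and 12.34 against 13.18 and 12.60 and was not called (adjusted p = 0.640). For class II presentation and costimulation, 1 of 15 was called higher, the class II regulator H2-Ob (7.34 and 6.74 against 4.84 and 4.29; at least 2.30-fold, limma adjusted p = 0.0258), and 1 lower, the costimulator Cd86 (4.90 and 4.80 against 7.69 and 7.22; at least 3.07-fold, limma adjusted p = 0.0113). Cd86 kept its call without each compared array. Without Gr1Mac array 1 the adjusted p of Mrc1, Slc40a1 and C1qa was 0.101, 0.0519 and 0.0539, and without Gr1Mac array 2 no monocyte gene was called. C1qa also lost its call without either MN1VP16 array (0.0641 and 0.106). H2-Ob lost its call without Gr1Mac array 2 (0.103) and without either MN1VP16 array. Of 29 interferon response genes, 28 cytokines and chemokines, and 23 retinoid signalling genes none was called by limma. At an unadjusted p under 0.05 there were 1 higher and 0 lower, 3 and 3, and 1 and 5. Both group means lay under the background guide in 12 of the 28 cytokines and chemokines and 7 of the 23 retinoid signalling genes. Without MN1VP16 array 1 there were 3 interferon genes called higher, without Gr1Mac array 1 there was 1, and without MN1VP16 array 2 there were 3 cytokines called lower. Junb, a subunit of AP-1, was the 1 call among 30 immediate early genes (8.74 and 9.55 against 10.75 and 10.65; 2.94-fold lower, limma adjusted p = 0.0366), and it was lost without 3 of the compared arrays. In that list MN1VP16 array 2 was high in the mean (10.06, against 8.76 on MN1VP16 array 1 and 9.52 and 9.48 on the Gr1Mac arrays), led by genes such as Egr1 (8.62 and 12.51 against 9.77 and 9.49).

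Histamine and lipid mediator enzymes and receptors were called lower in 5 of 28 measured members and higher in none, with a median of -0.61. Beside Hnmt these were Pla2g7, Alox5, Hrh2 and Ptgir. Pla2g7, which degrades platelet-activating factor, read 8.24 and 5.71 against 10.98 and 11.13 (16.9-fold lower, interval 4.18 to 68.6, limma adjusted p = 0.0473). Alox5, the first enzyme of leukotriene synthesis, read 8.64 and 8.73 against 11.60 and 11.55 (difference -2.89, SE 0.49, limma adjusted p = 0.0324). The histamine receptor Hrh2 read 6.81 and 7.22 against 8.42 and 8.58 (limma adjusted p = 0.0226). The count was 4, 2, 3 and 3 without Gr1Mac array 1, Gr1Mac array 2, MN1VP16 array 1 and MN1VP16 array 2, and 2 without either MN1 array. Pla2g7 kept its call of these 4 only without MN1VP16 array 1 (0.0227).

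Fatty acid and glycerolipid synthesis genes were called higher in 4 of 28 and lower in 2, where 3.66% and 2.11% of all genes were. The median difference was 0.12. With only the 4 compared arrays, or without either MN1 array, 1 was called higher and 2 lower, and with arrays centred on their medians 1 and 0. Gpam, the mitochondrial acyltransferase that starts glycerolipid synthesis, read 13.30 and 11.89 in MN1VP16 cells and 7.41 and 6.73 in Gr1Mac cells (46.2-fold, interval 18.9 to 113, limma adjusted p = 0.0125). Its second probe set gave a difference of 1.36 and was not called. The elongase Elovl6 (8.42 and 8.18 against 6.69 and 5.30), the desaturase Scd2 and the fatty acid synthase Fasn rose by 2.30, 1.97 and 1.72. Gpat3, an acyltransferase of the endoplasmic reticulum (7.15 and 6.81 against 8.76 and 8.86; 3.55-fold, adjusted p = 0.0452), and Dgat1, which makes triglycerides (10.42 and 10.80 against 12.23 and 12.35; 3.21-fold, adjusted p = 0.0446), fell. Without Gr1Mac array 2 no member was called (Gpam 0.0677), and without either MN1VP16 array only Gpam was. Cholesterol synthesis genes were called lower in 6 of 20 and higher in none, with a median of -0.82. Msmo1, the sterol methyl oxidase, read 7.52 and 7.74 against 9.83 and 9.98 (4.84-fold lower, interval 3.51 to 6.69, limma adjusted p = 0.0113). Hsd17b7 read 6.94 and 6.66 against 9.01 and 8.81 (4.32-fold lower, limma adjusted p = 0.0129), with 1 of its 3 other probe sets at 0.06. Hmgcs1, Sc5d, Stard4 and Srebf2, the gene of the transcription factor that drives the pathway, fell by 0.76 to 1.65. The sterol list had 4, 0, 2 and 3 calls lower without Gr1Mac array 1, Gr1Mac array 2, MN1VP16 array 1 and MN1VP16 array 2.

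Other large differences lay outside the lists. Among the 8 largest rises were Ddx4, a germ-cell RNA helicase (9.76 and 6.98 against 3.48 and 2.90; at least 5.78-fold), and, over the background guide, Esyt3, a membrane tether (11.36 and 8.90 against 6.04 and 6.43; 14.9-fold). The nucleosome-binding protein gene Hmgn1 (12.07 and 10.97 against 8.12 and 7.20; 14.5-fold) and the endocytic receptor gene Lrp1 (13.22 and 11.61 against 9.14 and 8.17; 13.6-fold) were also among these. In all 4 of these genes MN1VP16 array 1 was above array 2, and the second Lrp1 probe set gave -0.30. Among the largest falls were Tex15 (5.50 and 5.64 against 10.08 and 10.17; at least 19.5-fold, limma adjusted p = 0.00156), known for its part in male germ cells, and 4833407H14Rik (5.89 and 6.08 against 10.72 and 10.17; 22.1-fold, limma adjusted p = 0.0058). Upp1, uridine phosphorylase, fell at least 10.8-fold (6.28 and 5.08 against 9.57 and 9.42), Krt86, a hair keratin gene, at least 7.61-fold (4.54 and 5.57 against 8.92 and 8.61), Rps4l at least 3.39-fold (4.04 and 4.02 against 8.12 and 7.07) and the hyaluronan receptor Lyve1 at least 4.03-fold (4.38 and 4.20 against 8.26 and 7.43). The MARCKS substrate of protein kinase C (Marcks; 6.23 and 7.64 against 9.70 and 11.25; 11.6-fold) and the villin relative Vill (6.54 and 6.65 against 10.23 and 9.66; 10.2-fold) fell as well. The B cell survival ligand BAFF (Tnfsf13b; 7.89 and 8.13 against 11.56 and 11.08; 9.92-fold, limma adjusted p = 0.0125) was followed by Rasl11b (6.83 and 5.73 against 9.53 and 9.37), Ankrd22 (7.28 and 7.56 against 10.37 and 10.58; 8.32-fold) and Tent5c, a poly(A) polymerase (8.42 and 8.06 against 11.63 and 10.79). The second Ankrd22 probe set showed no difference (0.00). Of the genes in this paragraph Tex15, 4833407H14Rik, Lyve1 and Vill kept their calls without Gr1Mac array 2, where the others lay between 0.0597 and 0.136. Ddx4, Esyt3 and Rasl11b also lost theirs without Gr1Mac array 1 (0.0736, 0.129 and 0.0571), Marcks without MN1VP16 array 1 (0.0811), and Rps4l and Tent5c without each compared array.

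**Figure D4:**
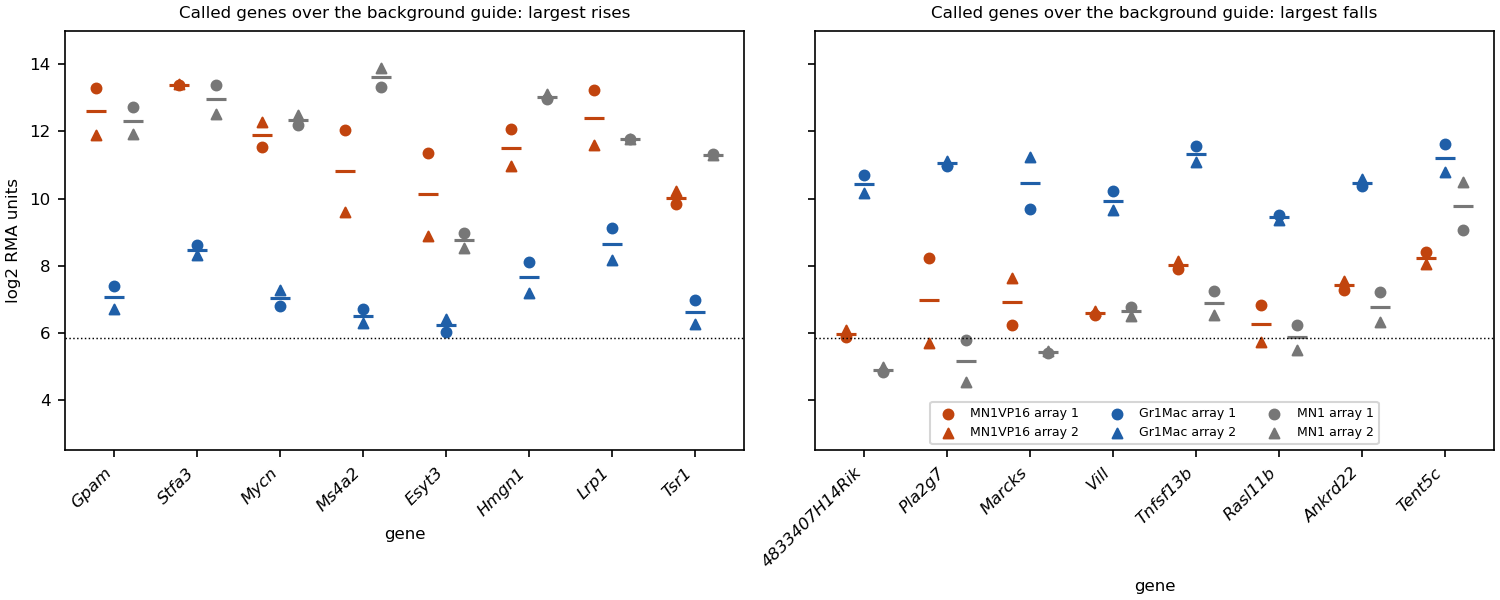
Log2 RMA values on each array (circles, array 1; triangles, array 2; short bars, group means) for the 8 largest called rises and the 8 largest called falls whose lower group mean is over the background guide (dotted line), in MN1VP16 (red), Gr1Mac (blue) and MN1 cells (grey). In all 16 genes the MN1VP16 and Gr1Mac arrays do not overlap, while Ms4a2, Esyt3 and Pla2g7 differ by more than 2 log2 units between the MN1VP16 arrays.

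Markers of other lineages that a GFP gate could hold were read as lists, beside shares over all genes of 3.66% called higher and 2.11% lower. Of 16 B cell markers 4 were called higher: the surrogate light chain genes Vpreb1 (7.69 and 8.35 against 5.38 and 5.02; at least 4.54-fold, limma adjusted p = 0.0262) and Igll1 (7.89 and 7.72 against 6.03 and 6.21), Dntt, the terminal transferase (6.18 and 6.16 against 4.99 and 5.23), and the IL7 receptor gene Il7r (8.12 and 7.81 against 5.20 and 5.07; at least 4.38-fold, limma adjusted p = 0.00769). Il7r, also the 1 call among 30 cytokine and growth factor receptors, kept its call without each compared array, while its second probe set gave 0.68. The B cell factors Pax5 and Ebf1 lay under the background guide on every array (Pax5 4.95 and 5.11 against 5.30 and 5.01; Ebf1 4.36 and 4.23 against 4.38 and 4.16). The mean of the B cell list was 6.14 and 6.65 against 5.36 and 5.14, and its calls were 2, 1, 5 and 1 without Gr1Mac array 1, Gr1Mac array 2, MN1VP16 array 1 and MN1VP16 array 2. Of 15 T and NK cell markers only Cd3d was called, lower (5.37 and 5.59 against 8.66 and 7.94; at least 5.51-fold, limma adjusted p = 0.0125), and it kept the call without each compared array. The list mean was 5.71 and 5.68 against 5.68 and 5.81, and Cd3e read 6.55 and 6.78 against 6.52 and 7.10. No eosinophil marker was called of 7 (2 lower at an unadjusted p under 0.05, limma; 1 called higher without MN1VP16 array 1), but the list mean was 7.23 on Gr1Mac array 1 and 5.91 on Gr1Mac array 2, and the major basic protein gene Prg2 read 10.44 and 7.47 there. Of 14 dendritic cell markers Cd209a was called lower, with both groups under the background guide, and lost the call without each compared array (0.0585 to 0.140). Of 19 stromal and endothelial markers only 5 exceeded the guide in either group, and Acta2, smooth muscle actin, was called lower (7.51 and 7.82 against 10.10 and 10.27; 5.75-fold, limma adjusted p = 0.0139; 0.0680 without Gr1Mac array 2), while its other 2 probe sets gave 0.01 and -0.31. Both group means lay under the background guide in 5 of the 16 B cell and 8 of the 15 T and NK cell markers. The same held for 7 of the 14 dendritic cell and 2 of the 7 eosinophil markers. The part of cells of other lineages in the results was not tested.

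The direct comparison of MN1VP16 with MN1 cells shows where the distance from Gr1Mac cells differs between the 2 transduced groups, because the Gr1Mac arrays cancel in it. Of 18193 genes 209 (1.15%) were called higher and 492 (2.7%) lower in MN1VP16 than in MN1 cells, 3.85% in either direction. Car1 (MN1 mean 13.53) and Aqp1 (11.24) lay lower in MN1VP16 cells by 3.33 and 3.20, and so did Kit (11.18), by 1.43, and Elovl6 (11.52), by 3.22. Of the 24 erythroid members 12 were called lower and none higher, and of the 23 stem and progenitor members 6 lower and 1, Cd93, higher (MN1 mean 9.95). Irf8 (7.97) lay higher in MN1VP16 cells by 3.49, Itgam (7.31) by 1.85, Ifitm1 (7.03) by 2.36, Asprv1 (6.42) by 2.64 and Junb (7.02) by 2.13, with limma adjusted p from 0.0263 to 0.0484. In Itgam, Ifitm1, Asprv1, Junb and Cdkn2d the MN1VP16 arrays lay between the MN1 and the Gr1Mac arrays. Of the class II genes H2-Aa was higher than in MN1 cells by 4.35 (limma adjusted p = 0.0040) and differed from Gr1Mac cells by -0.04. For Cpa3, Hnmt, Gpam, Cd34, Hoxa9 and Mycn the 2 transduced groups were not called different (adjusted p 0.144 to 0.842; differences from -1.77 to 0.28), which does not show that they are alike. The counts of 209 and 492 were 3 and 23 without MN1 array 2, 73 and 130 without MN1VP16 array 2, 252 and 224 without MN1 array 1, 163 and 335 without MN1VP16 array 1, and 104 and 350 without either Gr1Mac array. No erythroid gene was called lower without MN1 array 2. Both MN1 arrays had the Xist pattern and both MN1VP16 arrays the Y-linked one, so in these calls the construct and the sex pattern of the cells cannot be told apart.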

How the data were processed

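Mouse marrow cells were measured on 6 Affymetrix mouse arrays (2 per group) after TRIZOL extraction and labelling by the 3′ IVT Express kit, per the labels' protocols. The authors deposited log2 values per probe set, made with RMA per the submitters' processing notes, whose version is not given in the sources used here. Because RMA forces 1 distribution on all arrays after background subtraction, it narrows the differences of dim genes and hides any shift in RNA content per cell. Of 45037 ordinary probe sets, 34945 named 1 gene in GEO's platform annotation, 932 several and 9160 none; the 1-gene sets gave 18193 genes, each read by its brightest set on average.

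Differences were tested with the R package limma (limma 3.58.1, R 4.3.3; lmFit, then eBayes, over all 6 arrays, group as the only term, 3 residual and 3.03 prior degrees of freedom), two-sided, with Benjamini-Hochberg adjustment over 18193 genes at 0.05. Intervals are 95% and moderated. The fit was tested on simulated data. The genes named are Mn1, Cpa3, Hnmt, Gpam, Kit, Cd34, Hoxa9, Meis1, Irf8, Cebpa, Itgam and Ly6g, the 8 largest called rises and falls (and the same with the lower mean over the guide), the 2 largest calls of each list in each direction with every call where a list had up to 3, and those of them also called between MN1VP16 and MN1 cells. Other list members were named after their values were seen. Members and lists were chosen with earlier results of these data known. In all 18 alternatives were tried: blocks, scalings, filters, the probe set rule and each array left out. Some of them coincide for MN1VP16 against Gr1Mac. Promoters are RefSeq's. Python 3.11.15 with pandas 2.3.3 and matplotlib 3.10.9 made the summaries and plots.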

Additional observations from a re-analysis of the deposited data

Results flagged for a closer look

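In 11 of the named genes the difference from Gr1Mac cells was of another size in MN1VP16 than in MN1 cells, by the limma contrast between the 2 transduced groups. The MN1VP16 difference was less than the MN1 difference by 1.43 for Kit, so that the value is -1.43, and the values were -3.33 for Car1, -3.20 for Aqp1 and -3.22 for Elovl6. With its sign kept, the MN1VP16 difference lay above the MN1 difference by 3.49 for Irf8, 1.85 for Itgam, 0.99 for Tex15, 2.36 for Ifitm1, 2.64 for Asprv1, 2.13 for Junb and 1.37 for Cdkn2d. In all of these but Irf8 both groups lay below Gr1Mac cells, and the MN1VP16 fall was the smaller one. For Irf8 the fitted differences had opposite signs, 1.43 in MN1VP16 and -2.07 in MN1 cells, and neither was called. Tex15 was low in both transduced groups (MN1VP16 5.50 and 5.64, MN1 4.44 and 4.71, all under the background guide), so its value has no clear size. Elovl6 read 11.78 and 11.25 in MN1 cells, 8.42 and 8.18 in MN1VP16 cells, and 6.69 and 5.30 in Gr1Mac cells. The construct and the Xist or Y-linked pattern of the arrays cannot be told apart in these 11 values.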

How the results depend on the processing

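Calls of MN1VP16 against Gr1Mac (666 higher, 384 lower) numbered 1018 and 225 with the Xist pattern as a block, which leaves the same information as dropping Gr1Mac array 1, 305 and 144 with array weights, 272 and 169 blocked on the brightness of the control features, and 181 and 166 with only the 4 compared arrays. With 1 array left out they ranged from 22 to 1018 higher and from 27 to 225 lower; in such a fit the lone array of a group is assumed to vary like the other groups. Calls against MN1 (209 higher, 492 lower) numbered 0 and 0 with the Xist pattern as a block (MN1 and MN1VP16 then lie in different blocks, linked by the Gr1Mac arrays alone), 497 and 1076 with array weights, 73 and 130 with the control split, and 129 higher with arrays centred on their medians; with 1 array left out they ranged from 3 to 252 and from 23 to 350. The replicate block gave 479 higher and 350 lower against Gr1Mac, 515 and 373 with only the 4 compared arrays (added after the data were seen), and 327 lower against MN1. The deviations of MN1VP16 and Gr1Mac arrays with the same number correlated at 0.080 over genes. For MN1VP16 and MN1 the value was -0.046, and for Gr1Mac and MN1 it was -0.049. Such values cannot decide whether arrays with the same number share more than a label. Against Gr1Mac, the block on the control features leaves the same information as dropping MN1VP16 array 1. Using only the 4 compared arrays leaves the same as dropping either MN1 array, so these are not separate checks. Other scalings, filters and probe set rules kept both Gr1Mac counts within 1.5 times. In the fits with arrays left out, blocked or weighted, the gap between the arrays of the 2 groups fixed the direction of called genes in advance. All 1050 genes kept their direction in every setting except the mean of all probe sets (1049 did) and the fit without probe sets ending in _x_at, _s_at or _a_at (920 of 936 present). In the latter Ankrd22 was read by another probe set at 0.00092 and so changed sign.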

Other observations

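Gene groups picked after the values were seen, and so described without support for any theme, showed further calls, beside shares over all genes of 3.66% higher and 2.11% lower. Of the 8 subunits of the CCT chaperonin, which folds actin and tubulin, 6 were called higher in MN1VP16 than in Gr1Mac cells (Tcp1, Cct2, Cct3, Cct4, Cct6a and Cct8), with a median difference of 1.26. Of 19 measured cytosolic aminoacyl-tRNA synthetases 6 were called higher (Eprs, Farsb, Hars, Iars, Qars and Tars; median 0.78), and of 12 measured purine synthesis enzymes 4 (Prps2, Ppat, Paics and Atic; median 1.09). In the family of Myc and its partners Myc and Mycn were called higher, and Mxd1 and Mxi1, which pair with Max in place of Myc, lower, of 11 members. Of 14 genes of the ATG8 family and its conjugation, which act in autophagy, 5 were called lower and none higher (Gabarap, Gabarapl2, Map1lc3a, Atg3 and Wipi1; median -0.49). The de novo DNA methyltransferases Dnmt3a and Dnmt3b were called higher of 4 methyltransferases, and Dnmt3b, at 8.27 and 8.24 against 5.93 and 5.99, kept its call without each compared array. Without Gr1Mac array 2 no chaperonin, synthetase, purine or ATG8 family gene was called, and of the other 2 groups only Mycn and Dnmt3b were. Without MN1VP16 array 2 the calls were 0 chaperonin, 0 synthetase and 0 purine genes higher and 1 ATG8 family gene lower, and without MN1VP16 array 1 they were 3, 1 and 3 higher and 1 lower (with 1 ATG8 family gene, Atg12, higher). Without Gr1Mac array 1 they were 7, 10 and 8 higher and 4 lower (with 1 ATG8 family gene higher).

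Among the 33 genes that kept the call without each of the 4 compared arrays were also the mitochondrial chaperone Hspa9 (10.28 and 10.19 against 7.88 and 7.31), the nucleolar helicase Ddx21 (8.87 and 8.79 against 6.62 and 6.28) and Gar1, of the H/ACA particles (9.90 and 10.05 against 7.83 and 7.26), all higher. Dock1 (3.92 and 3.65 against 7.02 and 6.29) and Sema4f (6.38 and 6.13 against 8.95 and 8.74) were among the lower ones. In 2 called genes another probe set was called in the opposite direction: Bzw2 at 1.63 and -1.86, and Bbip1 at 1.58 and -1.27.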
